A study of Mus musculus with 6 samples.

Results

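The genes Ahr, Arnt, Ahrr, Cyp1a1, Cyp1b1, Tiparp and Por were followed as the core of the aryl hydrocarbon receptor pathway among the 35458 genes that could be named in the files. They were chosen by name, with earlier results of these data known. All 7 were found, and 6 had reads. RNA was measured in fetal mouse hearts after inhalation exposure of the mothers to titanium dioxide nanoparticles (nano-TiO2, the ultrafine form of a white pigment). In the nano-TiO2 group, wild-type FVB/NJ dams, an inbred strain, breathed an aerosol with a target of 12 mg/m3 from gestational day 5, in sessions of 360 minutes on 6 separate days of an 8-day window. In the sham group, dams of the same strain were exposed to filtered room air. Fetal hearts of both sexes were taken on gestational day 15 and pooled, with 3 pools per group, from a study of 14 dams aged 10 weeks. No group carried a transgene or mutation. The 6 libraries are the input libraries of an RNA-methylation immunoprecipitation study, made from fragmented total RNA without antibody, so they measure transcript abundance. Which litters went into a pool is not given, so the tests see pool-to-pool variation, part of which may be technical.

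The aryl hydrocarbon receptor (AHR) is a ligand-activated transcription factor held in the cytosol by chaperones. On binding a planar aromatic ligand it enters the nucleus, pairs with ARNT and binds DNA at a short core motif, GCGTG. Among the genes it induces are the cytochrome P450 genes Cyp1a1 and Cyp1b1, which oxidise such ligands, and a pair of its own brakes: AHRR, a repressor that competes for ARNT, and TIPARP, an enzyme that attaches ADP-ribose to the receptor. POR passes electrons from NADPH to the P450 enzymes of the endoplasmic reticulum and is not a classical target. In the developing heart AHR signalling is best known from studies of dioxin, an AHR ligand that disturbs heart formation in fish, bird and rodent embryos.

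The promoters of the 4 inducible genes are shown because the core motif can be read in them directly. Each run is 300 bases of RefSeq sequence (build GRCm38.p6), 250 before and 50 from the annotated start on, printed 5′ to 3′ on the strand of the gene, with GCGTG and its reverse complement CACGC in capitals.
Ahrr (chr13:74292282-74292581, minus strand): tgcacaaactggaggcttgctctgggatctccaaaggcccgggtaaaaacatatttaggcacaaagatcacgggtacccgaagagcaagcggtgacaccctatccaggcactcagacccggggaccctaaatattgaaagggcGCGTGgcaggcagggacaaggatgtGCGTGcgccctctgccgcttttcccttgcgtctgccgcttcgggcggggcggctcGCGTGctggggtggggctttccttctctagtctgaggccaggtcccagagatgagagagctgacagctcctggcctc
Tiparp (chr3:65528197-65528496, plus strand): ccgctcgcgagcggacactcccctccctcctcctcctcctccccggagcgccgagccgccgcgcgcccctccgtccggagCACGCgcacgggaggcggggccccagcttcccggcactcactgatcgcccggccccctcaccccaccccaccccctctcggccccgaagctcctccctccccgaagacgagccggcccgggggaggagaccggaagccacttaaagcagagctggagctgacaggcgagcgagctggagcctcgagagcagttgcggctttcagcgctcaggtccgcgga
Cyp1b1 (chr17:79715012-79715311, minus strand): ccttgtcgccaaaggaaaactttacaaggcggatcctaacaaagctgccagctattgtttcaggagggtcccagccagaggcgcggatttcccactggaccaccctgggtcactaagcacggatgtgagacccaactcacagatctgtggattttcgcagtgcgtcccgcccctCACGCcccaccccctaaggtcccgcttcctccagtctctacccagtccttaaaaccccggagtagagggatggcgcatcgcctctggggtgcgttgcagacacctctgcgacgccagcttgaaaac
Cyp1a1 (chr9:57697363-57697662, plus strand): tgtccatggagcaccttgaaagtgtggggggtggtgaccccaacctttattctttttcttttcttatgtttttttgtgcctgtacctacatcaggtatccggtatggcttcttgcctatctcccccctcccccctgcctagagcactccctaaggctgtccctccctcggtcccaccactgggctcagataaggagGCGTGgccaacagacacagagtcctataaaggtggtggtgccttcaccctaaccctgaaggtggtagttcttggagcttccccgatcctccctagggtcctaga
The Ahrr window held 3 copies of the core, and the Tiparp, Cyp1b1 and Cyp1a1 windows 1 each. The longer form TNGCGTG, searched on both strands and overlapping the core, was found once, in Ahrr. Of the 7 genes 6 had a window in the table, and the windows of Arnt and Por held 1 and 3 copies of GCGTG. Among all 32851 promoter windows of the same length, 32.4% held GCGTG and 5.07% held TNGCGTG on either strand, so a match describes these letters and does not mark a bound site.

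Salmon had assigned 12881945 to 21553478 estimated reads to the transcripts of the nano-TiO2 libraries and 17152365 to 22720009 to those of the sham libraries. The cardiomyocyte markers Tnnt2, Myh6, Myh7, Actc1, Nkx2-5 and Tnni3 were present in every library. Their summed level was 25326 to 32553 CPM (counts scaled to library size with edgeR's TMM factors) in nano-TiO2 hearts and 35151 to 40861 CPM in sham hearts. Actc1 held 30.8% to 38.6% of that sum. Without Actc1 the groups overlapped, with 16742 to 22513 CPM in nano-TiO2 and 21739 to 27510 CPM in sham hearts. Hepatocyte markers summed to 922 CPM in sham 2, against 3.10 to 29.4 CPM in the nano-TiO2 libraries and 22.2 to 69.1 CPM in the other sham libraries. Lung epithelial markers summed to 1484 CPM in nano-TiO2 3, against 0.668 to 287 CPM in the other nano-TiO2 libraries and 13.4 to 144 CPM in the sham libraries. These pools therefore stand apart, and the tests of the 7 genes, their TPM levels and their profiles are also given without sham 2 and nano-TiO2 3.

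The receptor, its partner and both of its brakes were higher in nano-TiO2 hearts, while Cyp1a1 had no read in any library, Cyp1b1 did not pass the test and Por was lower. By edgeR's quasi-likelihood test on gene sums of Salmon's estimated reads, with Benjamini-Hochberg adjustment over 13930 genes and a threshold of 0.05, Ahr, Arnt, Ahrr and Tiparp rose and Por fell. That is 4 higher and 1 lower of the 6 tested, beside 15.5% higher and 12.8% lower, 28.2% in all, among every gene tested. That balance depends on the scaling: with library totals alone 4 of the 6 were called higher and 0 lower, beside 30.7% higher and 0.359% lower among all genes, and on the log2(TPM + 1) scale limma called 2 of 3 genes higher and 0 lower, beside 38% higher and 0.134% lower. The pools of the groups did not overlap in CPM for these 5 genes, as for 45.7% of all genes tested (23.3% higher and 22.4% lower in nano-TiO2). Ahrr and Cyp1b1 passed the filter on low values only through the nano-TiO2 group, with 3 nano-TiO2 libraries above its limit of 0.52 CPM against 2 sham libraries for Ahrr and 1 for Cyp1b1. In bulk tissue, fewer cells of a type and less RNA per cell cannot be told apart.

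**Figure D1:**
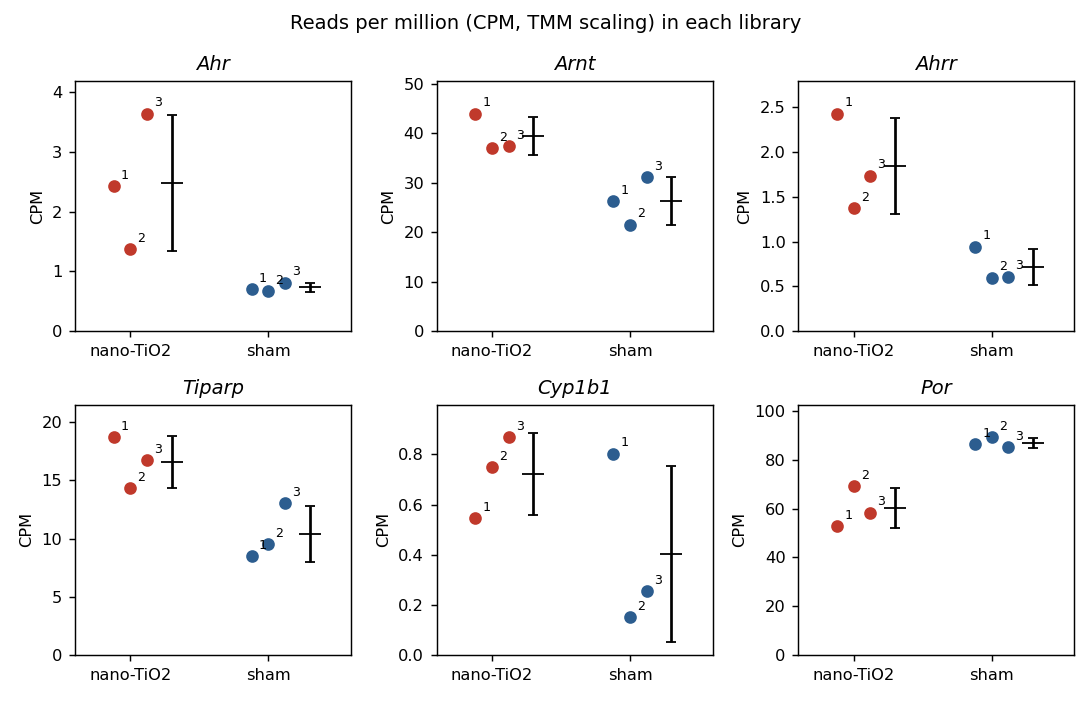
Library-scaled reads (CPM, vertical axis from 0) of the 6 detected genes in each library, nano-TiO2 left of sham. Points are pools numbered as in the labels, and the bar beside them is the mean with SD of 3 pools. The pools of the groups do not overlap for Ahr, Arnt, Ahrr, Tiparp and Por, and overlap for Cyp1b1, where sham 1 lies among the nano-TiO2 pools.

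Ahr, which encodes the receptor itself, was a rare transcript. It had 40, 22 and 88 estimated reads in nano-TiO2 hearts 1, 2 and 3, against 15, 9 and 16 in sham hearts 1, 2 and 3. Scaled for depth this was 2.43, 1.37 and 3.64 CPM in the nano-TiO2 pools, against 0.709, 0.673 and 0.814 CPM in the sham pools. All 3 nano-TiO2 pools lay above all 3 sham pools, and the spread was wide in the nano-TiO2 group and narrow in the sham group. The means were 2.48 ± 1.13 CPM in nano-TiO2 and 0.732 ± 0.0733 CPM in sham hearts (SD, n = 3 each). The log2 fold change was 1.76 ± 0.44 (SE, 95% interval 0.76 to 2.76, edgeR adjusted p = 0.0220), the largest of the 6 tested genes. Without nano-TiO2 3, the highest pool, it was 1.36 with an adjusted p of 0.0943, and without nano-TiO2 1, sham 1 and sham 2 in turn the adjusted p was 0.0645, 0.0597 and 0.0689.

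Arnt, the shared nuclear partner that AHR needs to bind DNA, was far more abundant. It stood at 44.0, 37.1 and 37.4 CPM in the nano-TiO2 pools, against 26.2, 21.5 and 31.2 CPM in the sham pools. The groups did not overlap, with nano-TiO2 2 and sham 3 the nearest pools. Arnt rose by 0.58 ± 0.17 on the log2 scale (SE, 95% interval 0.19 to 0.98, edgeR adjusted p = 0.0384). Without nano-TiO2 1, nano-TiO2 3, sham 1 and sham 2 in turn the call was lost, with adjusted p of 0.133, 0.0881, 0.0762 and 0.0988.

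Ahrr, the repressor, had 2.43, 1.37 and 1.74 CPM in the nano-TiO2 pools, against 0.945, 0.599 and 0.611 CPM in the sham pools. These values rest on 40, 22 and 42 reads in nano-TiO2 and 20, 8 and 12 in sham hearts, and the groups did not overlap. The log2 fold change was 1.341 ± 0.407 (SE, 95% interval 0.41 to 2.27, edgeR adjusted p = 0.0403). The call held only with nano-TiO2 2 left out among the 6 fits without 1 library, and in the other 5 the adjusted p lay between 0.0592 (without sham 1) and 0.166 (without nano-TiO2 1).

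Tiparp, the ADP-ribosyltransferase that acts on AHR, had 18.7, 14.3 and 16.7 CPM in the nano-TiO2 pools, against 8.51, 9.50 and 13.1 CPM in the sham pools. The groups did not overlap, with nano-TiO2 2 and sham 3 again the nearest pools. The log2 fold change was 0.68 ± 0.21 (SE, 95% interval 0.19 to 1.17, edgeR adjusted p = 0.0455). Without nano-TiO2 1, nano-TiO2 3, sham 1 and sham 2 in turn the adjusted p was 0.147, 0.119, 0.110 and 0.112.

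The P450 targets gave little or no signal. Cyp1a1, the gene most used as a readout of AHR activation, had 0 reads in all 3 nano-TiO2 and all 3 sham libraries, in the Salmon estimates and in all 111 bins of the series table. A count of 0 allows up to 3 reads, or 0.124 to 0.187 CPM in the nano-TiO2 libraries and 0.142 to 0.224 CPM in the sham libraries, so any Cyp1a1 RNA lay below what this depth could show, and these limits cover counting error only. Cyp1b1, the P450 found mainly outside the liver, had 9, 12 and 21 reads in nano-TiO2 hearts, against 17, 2 and 5 in sham hearts. In CPM this was 0.547, 0.750 and 0.868 in the nano-TiO2 pools, against 0.803, 0.150 and 0.254 in the sham pools. The groups overlapped because sham 1 stood with the nano-TiO2 pools. The log2 fold change was 0.78 ± 0.62 (SE, 95% interval -0.64 to 2.2, edgeR adjusted p = 0.373), and without sham 1 it was 1.83 with an adjusted p of 0.0923. The interval holds 0 and also the value of Ahr.

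Por, the electron donor, went the other way. It had 52.9, 69.2 and 58.4 CPM in the nano-TiO2 pools, against 86.4, 89.3 and 85.4 CPM in the sham pools, and the groups lay well apart. Por fell by 0.53 on the log2 scale (SE 0.13, 95% interval -0.84 to -0.23, edgeR adjusted p = 0.0222), with TMM scaling, while with library totals alone the log2 fold change was -0.10 (adjusted p = 0.753) and on the log2(TPM + 1) scale it was 0.11 (limma adjusted p = 0.759). Those scalings put the median of all genes at 0.41 and 0.47, so that relative to it Por stood at -0.51 and -0.37. Its call was lost with any 1 library left out except nano-TiO2 2, with adjusted p from 0.0536 (without sham 3) to 0.0956 (without sham 2).

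Without sham 2 and nano-TiO2 3 together, the 5 called genes kept their directions, with log2 fold changes of 1.35 for Ahr, 0.54 for Arnt, 1.31 for Ahrr, 0.65 for Tiparp and -0.45 for Por. With 2 pools left per group edgeR then called 0 of the 6 genes and 0 of all 14021 genes tested, while 1 of the 6 and 3350 of all genes had an unadjusted p under 0.05. Adjusted p-values of the 5 genes were 0.20 to 0.256. Cyp1b1 stood at 0.32 in that fit (adjusted p = 0.834).

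The differences also followed transcript length and base composition across the whole data set. Among all tested genes the median log2 fold change was -0.45 in the quintile of shortest transcripts and 0.68 in that of the longest, and it was 0.49 in the quintile of lowest GC content and -0.43 in that of the highest. Ahr, Ahrr and Cyp1b1, with mean transcript lengths of 5520, 4570 and 4755 bases, belong to the quintile of longest transcripts, and Arnt (4219 bases) and Tiparp (3897 bases) to the next. Por, with 2621 bases and 58.3% GC, belongs to the quintile of highest GC.

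**Figure D2:**
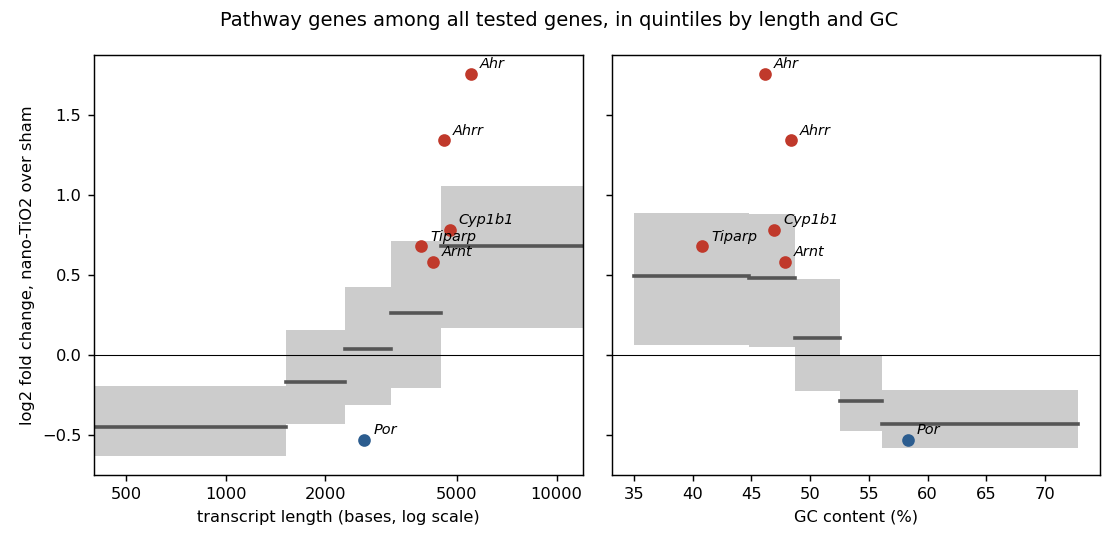
Log2 fold change (nano-TiO2 over sham) of the 6 detected genes against transcript length in bases (left, log axis) and GC content in percent (right). Grey boxes span the middle 50% of all 13930 tested genes in each quintile and dark lines are their medians. Ahr at 1.76 and Ahrr at 1.341 lie above the box of their quintile in both panels, Arnt, Tiparp and Cyp1b1 lie within theirs, and Por at -0.53 lies below the box by length and inside it by GC.

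Set beside genes in the same quintile of both properties, Ahr stood at percentile 97.9 of 705 genes whose median log2 fold change was 0.98, and 69.5% of those genes were called higher. Ahrr stood at percentile 83.3 and Cyp1b1 at percentile 31.3 of the same 705 genes. Arnt stood at percentile 41.3 of 579 genes with a median of 0.69, Tiparp at percentile 55.2 of 679 genes with a median of 0.61, and Por at percentile 25.8 of 558 genes with a median of -0.38. In these sets 45.9% were called higher beside Arnt and 32.3% beside Tiparp, and 19.4% were called lower beside Por. When the dependence on length and GC was taken out of every library before the same edgeR test, 0 of the 6 genes were called and 1, Ahr, had an unadjusted p under 0.05. In that fit edgeR called 1.57% of all genes at an adjusted p under 0.05. Ahr then stood at 0.96 ± 0.42 (SE, 95% interval 0.01 to 1.91, unadjusted p = 0.0477, adjusted p = 0.241) and Ahrr at 0.77 (adjusted p = 0.314). Tiparp stood at 0.21, Cyp1b1 at 0.13, Arnt at 0.01 and Por at -0.20, with adjusted p from 0.366 to 0.975. Without sham 2 and nano-TiO2 3 in that fit, chosen after seeing the data, edgeR called 0 of the 6 and 0 of all genes, and 0 of the 6 and 1580 of all genes had an unadjusted p under 0.05. Ahr then stood at 0.52, Ahrr at 0.70, Tiparp at 0.13, Por at -0.20, Arnt at -0.08 and Cyp1b1 at -0.38.

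**Figure D3:**
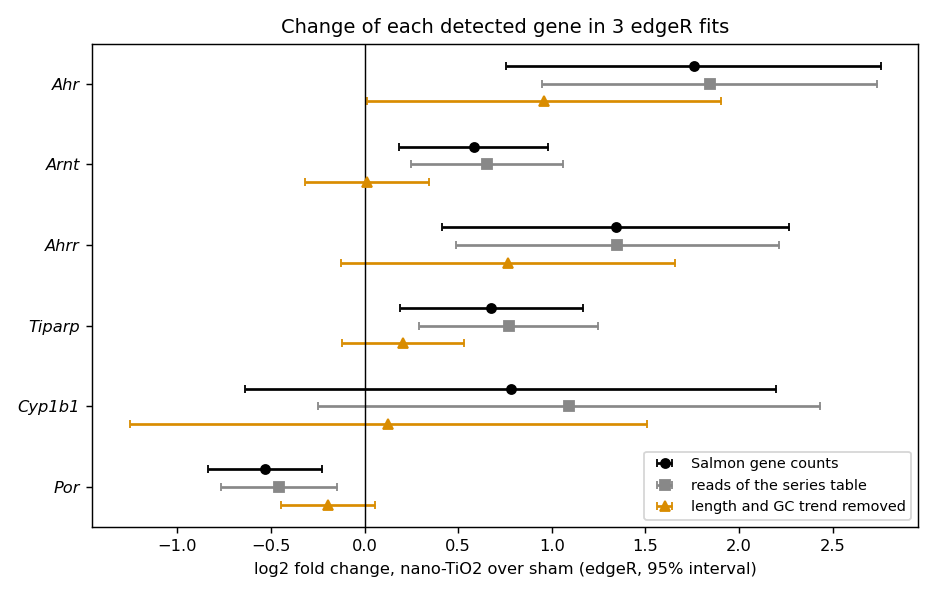
Log2 fold change (nano-TiO2 over sham, horizontal axis) with 95% interval for each detected gene in 3 edgeR fits, on Salmon gene counts, on the reads of the series table and after removal of the length and GC trend. The intervals of Ahr, Arnt, Ahrr, Tiparp and Por exclude 0 in both count sources. With the trend removed that of Ahr alone does, with a lower end of 0.01.

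The series table, in which the authors counted reads in bins of about 25 bases along each gene's exons, was a separate count of the same libraries. Limma on log2(scaled reads + 1) called 5 of the 5 genes that passed a mean of 10, beside 27.4% of all 18496 genes tested. The log2 fold changes were 1.66 for Ahr (adjusted p = 0.0147), 1.29 for Ahrr (0.0336), 0.76 for Tiparp (0.0273), 0.65 for Arnt (0.0274) and -0.49 for Por (0.0318). The table's Ahr values were 42.4, 26.5 and 65.9 scaled reads in the nano-TiO2 pools, against 12.7, 11.6 and 13.6 in the sham pools. Cyp1b1, which fell under the minimum there, had 11, 11 and 20 whole reads in nano-TiO2 and 15, 2 and 3 in sham hearts, with an edgeR log2 fold change of 1.09 (adjusted p = 0.197). Without sham 2 and nano-TiO2 3, chosen after seeing the data, limma called 0 of 6 genes and 0 of all 18416, with 2 of the 6 and 4704 of all genes at an unadjusted p under 0.05. Ahr then stood at 1.29, Ahrr at 1.06, Tiparp at 0.67, Arnt at 0.52 and Por at -0.49, with adjusted p from 0.160 to 0.224.

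Receptor and targets were compared as levels per length in TPM, the authors' deposited measure of reads per transcript length and library size, summed here per gene. In the nano-TiO2 pools Por led with 33.4 ± 8.99 TPM, followed by Arnt with 12.7 ± 1.50 TPM, Tiparp with 6.68 ± 1.55 TPM, Ahr with 0.559 ± 0.198 TPM and Cyp1b1 with 0.187 ± 0.0580 TPM (SD, n = 3). In the sham pools the order was the same, with 30.4 ± 4.16 TPM for Por, 5.21 ± 1.62 TPM for Arnt, 2.98 ± 0.816 TPM for Tiparp, 0.106 ± 0.0227 TPM for Ahr and 0.0784 ± 0.0738 TPM for Cyp1b1 (SD, n = 3). In the nano-TiO2 pools each neighbouring pair in this order was separated, while in the sham pools the ranges of Arnt and Tiparp and of Ahr and Cyp1b1 overlapped. Within each sham pool Arnt stood above Tiparp, at 5.81, 3.38 and 6.45 TPM against 3.52, 2.04 and 3.37 TPM. Cyp1b1 stood above Ahr in sham 1 and below it in sham 2 and sham 3. Without nano-TiO2 3 and sham 2 each pair was still separated in the nano-TiO2 pools. In the sham pools Arnt (5.81 and 6.45 TPM) and Tiparp (3.37 and 3.52 TPM) were then separated too, while Ahr (0.115 and 0.123 TPM) and Cyp1b1 (0.0413 and 0.163 TPM) still overlapped. Ahrr lay close to Ahr: on its protein-coding transcripts it had 0.573, 0.304 and 0.367 TPM in the nano-TiO2 pools, against 0.147, 0.0648 and 0.103 TPM in the sham pools. Over all its transcripts Ahrr had 0.573, 1.24 and 0.407 TPM in the nano-TiO2 pools, against 0.622, 0.463 and 0.103 TPM in the sham pools, which overlapped. A few reads on short processed transcripts of 319 and 363 bases make up much of that level in nano-TiO2 2, sham 1 and sham 2.

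Relative to the receptor, its partner and its brake Tiparp stood lower in nano-TiO2 hearts. The ratio of Arnt to Ahr in TPM was 23.1, 38.9 and 14.8 in the nano-TiO2 pools, against 50.7, 42.0 and 52.3 in the sham pools. The ratio of Tiparp to Ahr was 14.1, 18.8 and 7.02 in the nano-TiO2 pools, against 30.8, 25.4 and 27.3 in the sham pools. The groups did not overlap in either ratio. Ahr, with the largest fold change of the 6 genes, is the denominator of both, and for 74.3% of the other 13929 tested genes the ratio to Ahr was likewise lower in every nano-TiO2 pool than in every sham pool, so these ratios do not set Arnt and Tiparp apart. The ratio of Tiparp to Arnt, which leaves the receptor out, was 0.609, 0.484 and 0.473 in the nano-TiO2 pools, against 0.607, 0.604 and 0.522 in the sham pools, and overlapped. On protein-coding transcripts the ratio of Ahrr to Ahr was 1.17, 0.872 and 0.497 in the nano-TiO2 pools, against 1.28, 0.806 and 0.836 in the sham pools. The ratio of Cyp1b1 to Ahr was 0.208, 0.589 and 0.316 in the nano-TiO2 pools, against 1.43, 0.380 and 0.335 in the sham pools. These last ratios overlapped, and all of them share the few Ahr reads of each library.

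Each detected gene except Cyp1b1, whose few reads fell on Cyp1b1-201 or Cyp1b1-202, was carried mainly by 1 protein-coding transcript. Ahr-202 held 97.2% to 100% of the Ahr reads of a library. Por-201 held 99.5% to 99.6% of the Por reads in the nano-TiO2 pools and 98.8% to 99.4% in the sham pools, which did not overlap. That gap rests on few reads of other transcripts, at most 19.9 in a library, on Por-203 in sham 1. The share of all genes with such a gap was not measured. Arnt-202 held 92.9%, 86.5% and 77.6% of the Arnt reads in the nano-TiO2 pools, against 94.3%, 83.6% and 95.5% in the sham pools. Ahrr-201 held 100%, 76.1% and 89.2% of the Ahrr reads in the nano-TiO2 pools, against 85.3%, 79.3% and 100% in the sham pools. The shares of Arnt-202 and Ahrr-201 overlapped between the groups.

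Along the joined exons of each gene the reads leaned to the 3′ end for Ahr, Arnt, Ahrr and Por and not for Tiparp. The stretch of each gene with reads was cut into 3 equal parts. Joined exons span 9441 bases for Ahrr, 8000 for Arnt and 4000 for Por. The main transcripts Ahrr-201, Arnt-202 and Por-201 have 4754, 4325 and 2636 bases. Exons outside the main transcript thus enter the parts, so the shares do not measure a lean along 1 transcript. The part nearest the 3′ end held 60% to 88.9% of the Ahr reads of a library, 65.7% to 75.1% of those of Arnt, 66.7% to 78.0% of those of Ahrr and 48.4% to 53.8% of those of Por. For Tiparp it held 12% to 24.6%. The part of Ahr nearest the 5′ end had 5.43, 1.15 and 3.83 scaled reads in the nano-TiO2 pools and 0 in all 3 sham pools, and the 3′ part averaged 34.7 scaled reads in nano-TiO2 and 9.32 in sham hearts. In the nano-TiO2 libraries 1 read counts as 0.766 to 1.15 scaled reads, so the 5′ values rest on very few reads. The sham pools had 15, 9 and 15 whole reads over all of Ahr, so their 0 is near the floor. Tiparp was higher in nano-TiO2 hearts in each of its 3 parts, by 1.55, 1.81 and 1.75 times from 5′ to 3′. Arnt stood at 1.37, 1.53 and 1.61 times the sham mean from 5′ to 3′, and its groups overlapped except in the 3′ part. The groups of Ahr and of Ahrr overlapped in the middle part. Por was lower in each, at 0.787, 0.655 and 0.717 times the sham mean from 5′ to 3′, and its groups overlapped in the 5′ part. Without sham 2 and nano-TiO2 3 the ratio of the group means was 2.90 in the 3′ part of Ahr, beside 3.72 with all pools, and lay between 1.49 and 1.71 in the parts of Tiparp and between 0.669 and 0.778 in those of Por. In the parts of Arnt that ratio lay between 1.28 and 1.62.

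**Figure D4:**
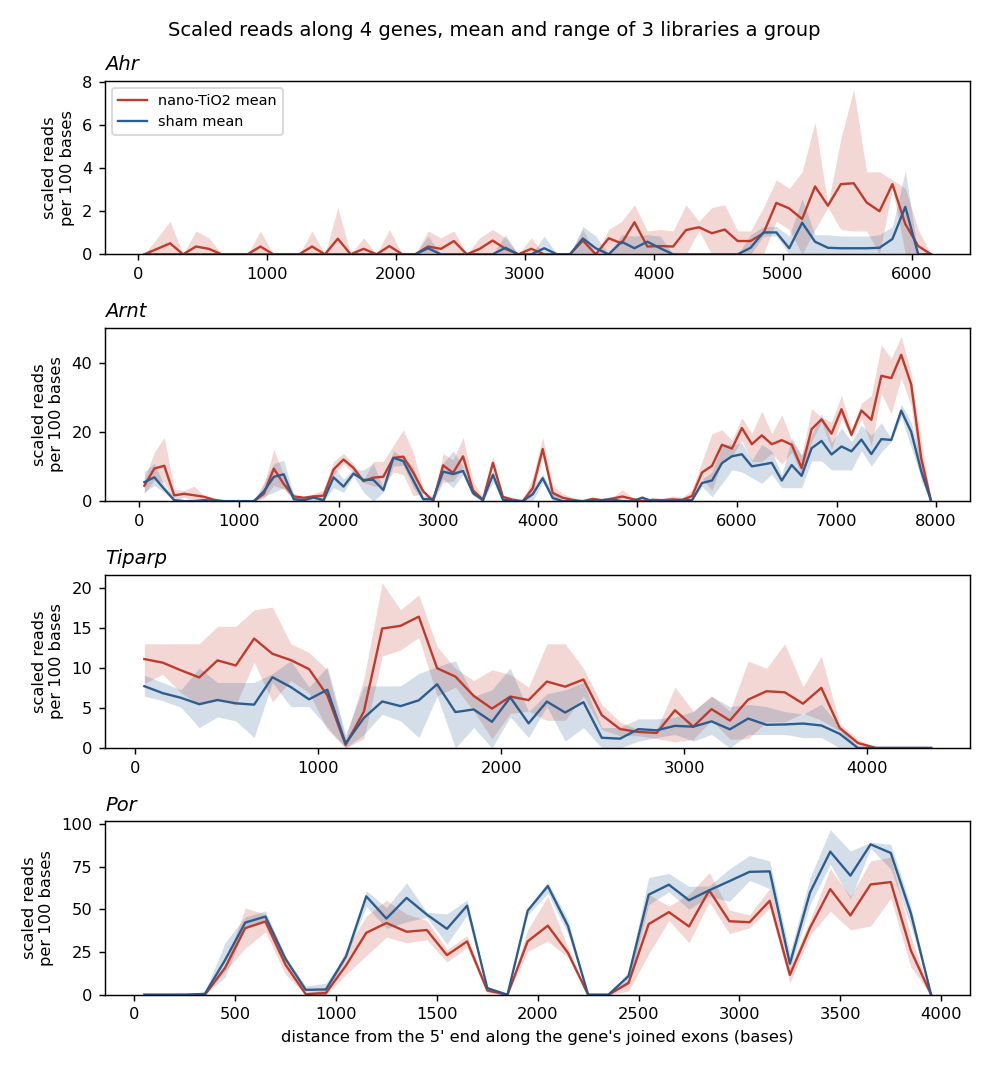
Scaled reads per 100 bases (vertical axis) against the distance from the 5′ end along the joined exons of Ahr, Arnt, Tiparp and Por. Lines are means and bands the range of 3 nano-TiO2 (red) or 3 sham (blue) pools. Ahr reads lie mostly toward the 3′ end, and the Por line of sham runs above that of nano-TiO2 over nearly its whole length.

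Of the bins of the 7 genes 82 passed a mean of 10, 81 of them in Por and 1 in Arnt, and limma called 0, while 13 had an unadjusted p under 0.05, all in Por. Among all 245114 bins tested limma called 5.62% at an adjusted p under 0.05. No share of all bins at an unadjusted p under 0.05 is given here to set beside the 13. The Por bins had a median log2 fold change of -0.42 and 7 of 81 lay above 0, and the Arnt bin stood at 0.75. Neighbouring bins share reads and are not replicates. Leaving out nano-TiO2 2 gave 2 called bins and leaving out sham 3 gave 1, all lower in nano-TiO2 hearts. Without sham 2 and nano-TiO2 3 limma called 0 of 78 bins, with 4 at an unadjusted p under 0.05.

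Several markers of other cell types moved with the group, and their part in the results on the 7 genes was not tested. Erythroid markers summed to 31511 to 74962 CPM in nano-TiO2 and 98297 to 233616 CPM in sham hearts. Hba-a1 held 43.1% to 64.1% of this erythroid sum. Without Hba-a1 the groups overlapped, with 11309 to 39725 CPM in nano-TiO2 and 39486 to 90777 CPM in sham hearts. Smooth muscle and pericyte markers summed to 1567 to 1622 CPM in nano-TiO2 and 2281 to 2664 CPM in sham hearts. Acta2, a smooth muscle actin also made by young cardiomyocytes, held 85.0% to 91.4% of that sum, and the other 5 genes together overlapped, with 201 to 240.3 CPM in nano-TiO2 and 229 to 291 CPM in sham hearts. Among all genes tested 22.4% were lower and 23.3% higher in nano-TiO2 hearts without overlap. Lower without overlap were 6 of 7 erythroid, 4 of 7 hepatocyte, 3 of 6 cardiomyocyte and 2 of 6 smooth muscle and pericyte genes, and none of these were higher. Of the endothelial genes 2 of 5 were higher, and of the macrophage genes 2 of 5 were higher and 1 lower. Of the fibroblast and of the epicardial genes 1 each was higher and 1 lower. The endothelial markers summed to 350 to 377 CPM in nano-TiO2 and 315 to 337 CPM in sham hearts. Fibroblast markers (1869 to 2122 CPM in nano-TiO2, 2036 to 2540 CPM in sham), epicardial markers (179 to 201 CPM in nano-TiO2, 161 to 202 CPM in sham) and macrophage markers (42.0 to 55.6 CPM in nano-TiO2, 45.4 to 58.7 CPM in sham) overlapped. No marker was at 0 in all 6 libraries.

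The genes around the receptor were described in lists chosen for their roles. Of 67 tested genes in 8 lists 14 were called higher and 6 lower, beside the 15.5% and 12.8% of all genes, and with library totals 27 higher and 0 lower. Among the cytosolic chaperones and adaptors listed for AHR, 3 of 7 fell and none rose, with a median log2 fold change of -0.28 beside -0.01 for all genes. They were Stub1, a ubiquitin ligase, at 282 ± 32.1 CPM in nano-TiO2 and 430.2 ± 34.7 CPM in sham hearts (SD, n = 3 each, log2 fold change -0.61, edgeR adjusted p = 0.0135), Fkbp4, an immunophilin (-0.62, 0.0159), and Cdc37, a kinase co-chaperone of HSP90 (-0.51, 0.0233). On the log2(TPM + 1) scale, where the median gene stood at 0.47, these 3 lay between 0.03 and 0.15. All 3 lost their calls without nano-TiO2 1, nano-TiO2 3, sham 1 and sham 2 in turn, with adjusted p of at most 0.117. With the length and GC trend removed Cdc37 alone of the 3 was called, at -0.65 (adjusted p = 0.0389), while Stub1 stood at -0.04 (0.889) and Fkbp4 at -0.29 (0.215).

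Coactivators and factors of AHR-ARNT turnover gave 8 higher and 1 lower of 14, with a median of 1.01. Among all genes tested 15.5% were called higher and 12.8% lower. Ncoa2, a p160 coactivator, had 20.0 ± 2.86 CPM in nano-TiO2 and 7.01 ± 0.638 CPM in sham hearts (SD, n = 3 each), a difference of 1.51 on the log2 scale (edgeR adjusted p = 0.0063). The acetyltransferase genes Crebbp and Ep300 rose by 1.07 and 0.99 (adjusted p = 0.0063 and 0.0098), and the zinc finger factor gene Sp1 by 1.17 (0.0064). The Mediator subunit gene Med1 rose by 1.07 (0.0074) and the corepressor gene Nrip1 by 1.28 (0.0085). These 6 calls held with each library left out in turn. After removal of the length and GC trend these 6 stood between 0.17 (Sp1) and 0.68 (Ncoa2), with adjusted p from 0.0639 to 0.582. Their mean transcript lengths of 5873 to 10576 bases all lie in the quintile of longest transcripts. In that quintile 43.2% of genes were called higher and the median log2 fold change was 0.68. The 1 gene called lower, named after its values were seen, was Rela, an NF-kappaB subunit that can bind AHR (-0.50, adjusted p = 0.0367), at 0.19 on the log2(TPM + 1) scale, and it lost the call without nano-TiO2 1, nano-TiO2 3, sham 1 and sham 2 in turn, with an adjusted p of at most 0.199. With the trend removed 1 gene of this list was called, Ddb1, a component of the ubiquitin ligase that degrades AHR, also named after its values were seen, at -0.70 (adjusted p = 0.0483) beside -0.50 (0.0707) before.

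Of the factors that share ARNT or resemble it, 2 of 7 tested rose and none fell, with a median of 0.47. The shares of all tested genes were 15.5% higher and 12.8% lower. Hif1a, the oxygen-sensitive partner of ARNT, had 112 ± 20.97 CPM in nano-TiO2 and 67.5 ± 12.8 CPM in sham hearts (SD, n = 3 each), which is 0.72 on the log2 scale (edgeR adjusted p = 0.0258). Npas3, a neural bHLH-PAS factor, had 1.58 ± 0.598 CPM in nano-TiO2 and 0.506 ± 0.136 CPM in sham hearts (SD, n = 3 each), with 1.604 (adjusted p = 0.0360), and Epas1, the second hypoxia-inducible subunit, had 0.47 (adjusted p = 0.0665). In single pools Npas3 had 1.76, 2.06 and 0.910 CPM in nano-TiO2 and 0.662, 0.449 and 0.407 CPM in sham hearts. Npas3 thus passed the filter's limit of 0.52 CPM only through the nano-TiO2 group. Hif1a lost its call without nano-TiO2 1 and without sham 2, and Npas3 with any 1 library left out except nano-TiO2 3, with adjusted p of at most 0.120. With the trend removed Hif1a stood at 0.14 and Npas3 at 0.85 (adjusted p = 0.706 and 0.341).

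Of 16 other genes that AHR is known to induce 8 passed the filter. EdgeR called 0 of them, beside 28.2% of all genes tested, with a median log2 fold change of -0.17. Nqo1, a quinone reductase and a standard AHR and NRF2 target named after its values were seen, had 7.62 ± 2.75 CPM in nano-TiO2 and 7.01 ± 3.05 CPM in sham hearts (SD, n = 3 each), a difference of 0.12 on the log2 scale (adjusted p = 0.837). The smallest p-values belonged to Slc7a5, an amino acid transporter (-0.68, adjusted p = 0.0631), Mgst1, a microsomal glutathione transferase (-0.39, 0.0750), and Xdh, xanthine dehydrogenase (0.90, 0.128), and on the log2(TPM + 1) scale Slc7a5 and Mgst1 stood at 0.0071 and 0.30. Cyp1a2, the sister gene of Cyp1a1, had 0 reads in all 6 libraries. Of these 8 genes 2, Slc7a5 and Mgst1, had an unadjusted p under 0.05 in edgeR, and DESeq2 called 1 lower.

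**Figure D5:**
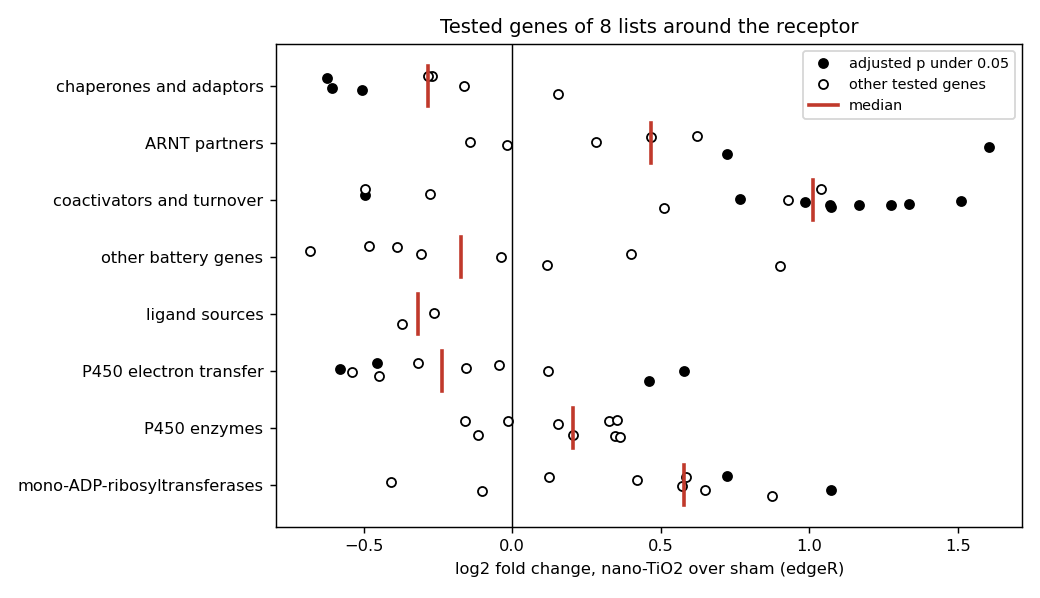
Log2 fold change (nano-TiO2 over sham, horizontal axis) of every tested gene in 8 lists around the receptor, with filled points for an edgeR adjusted p under 0.05, open points for the rest and a red bar at each list's median. The chaperones lie left of 0 except 1, the coactivators lie mostly right of 0, and the other battery genes hold no filled point.

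Genes whose levels ran most like those of single members over the 6 libraries were found by Pearson's r of log2 CPM, as a description, among 10020 genes averaging 5 CPM or more. They were Wwtr1, Magi3 and Apold1 for Ahr (r from 0.992 to 0.995), Plekha1, Mamld1 and Mier3 for Tiparp (0.998 to 0.999), Lypla2, Sppl2b and Prrc2a for Por (0.998) and Rccd1, Zfand2a and Ttc30a1 for Cyp1b1 (0.959 to 0.972). An r over 0.9 was reached by 688 genes for Ahr, 895 for Tiparp, 1337 for Por and 28 for Cyp1b1, and all these values share the same 6 libraries and their depth.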

How the data were processed

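RNA abundance was measured in 6 input libraries (3 nano-TiO2, 3 sham), grouped and numbered by their titles. Salmon made the estimated counts of reads per transcript and the TPM values beside them, per the file headers. The series table holds a signal deposited by the authors: reads per bin of 25 bases divided by 1 size factor per library, of which 100% of values came out whole within 0.001. Salmon 1.5.2, HISAT2 2.2.1, DESeq2 1.34.0 and the build GRCm39 are named, without roles, in the submitters' processing notes. Which tool counted the bins, and whether by strand, is not given in the sources used here.

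Of 116747 transcripts, 115685 matched GENCODE M21 by ID, giving 35458 genes and their lengths and GC. Estimated reads were summed per gene, rounded, and tested with edgeR 4.0.16 (quasi-likelihood, robust, TMM, filterByExpr, group as the only term) in R 4.3.3, and gene sums and bins of the table with limma 3.58.1 on log2(value + 1) at a mean of at least 10. All adjusted p-values are from edgeR unless limma is named. Alternatives included DESeq2 1.42.0 and removal of the length and GC trend with mgcv 1.9.3. The fits were tested on simulated data. Estimated reads ranged from 12881945 to 22720009, and the biological coefficient of variation was 23.9%. Bins run along the chromosome: for 84% of 3098 minus-strand genes that order matched the coding exons better than its reverse, so Ahr, Ahrr and Cyp1b1 were turned round.

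The genes and lists were chosen with earlier results of these data known, and 1 list gene is not reported here. Named list genes are the 3 tested with the smallest p of each list and those called, up to 6. No libraries of a group were copies within sampling noise.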

Additional observations from a re-analysis of the deposited data

How the results depend on the processing

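The labels do not say whether the replicate numbers pair the pools. Same-numbered pools correlated at -0.390, 0.022 and -0.081 and pools of unlike number at -0.415 to 0.480, so these values cannot decide it. With the number as a block edgeR called 1 of the 6 genes, Ahr (adjusted p = 0.0497), and 10 genes of the lists, and limma on the bin table called 4. Of the 6 genes 5 were called with RLE factors, upper-quartile factors, DESeq2, a stricter filter (mean count of 10) and without haemoglobin, mitochondrial and rRNA genes, and 4 with library totals only and with no filter. On log2(TPM + 1) and log2(TPM + 0.1) limma called 2 of 3 genes at a mean TPM of at least 1, and 2 with no filter. Protein-coding transcripts only gave 3, removal of the length and GC trend 0, and leaving out sham 2 and nano-TiO2 3 together 0, each of the last 2 with 1 gene at an unadjusted p under 0.05. Leaving out both pools also gave 0 of the 6 genes and 0 list genes with the trend removed and 0 genes in the bin table, both added after seeing the data. Each library left out in turn gave 0 to 5 (0 without nano-TiO2 1, nano-TiO2 3, sham 1 or sham 2, where 4 to 6 had an unadjusted p under 0.05), and for the bin table the range was 0 to 5. Of the list genes 2 were called with the trend removed, 0 without sham 2 and nano-TiO2 3 (18 at an unadjusted p under 0.05), 28 with DESeq2, and 8 to 21 with each library left out. Called bins numbered 0 to 2. Among all genes 219 (1.57%) were called with the trend removed, 2057 (14.8%) with the block and 0 without both pools, against 3935 (28.2%). DESeq2 called 4783 (34.3%), the highest count of the 21 alternatives. Each library left out in turn gave 1303 to 4272 of all genes, and 2042 to 5286 in the bin table. The block called 19.3% of all genes in the bin table. The causes were not tested.

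Directions turned as follows. On log2(TPM + 1), with and without the filter, Por stood at 0.11, Stub1 at 0.063, Fkbp4 at 0.029, Cdc37 at 0.15, Rela at 0.19, Ddb1 at 0.16, Slc7a5 at 0.0071, Mgst1 at 0.30, Afmid at 0.29, Il4i1 at 0.16, Hmox2 at 0.23 and Fdxr at 0.13. On log2(TPM + 0.1) the values were 0.11 for Por, 0.063 for Stub1, 0.030 for Fkbp4, 0.15 for Cdc37, 0.20 for Rela, 0.16 for Ddb1, 0.0067 for Slc7a5, 0.31 for Mgst1, 0.31 for Afmid, 0.28 for Il4i1, 0.23 for Hmox2 and 0.14 for Fdxr. With library totals Mgst1 stood at 0.034, Afmid at 0.15 and Il4i1 at 0.050. With the trend removed Il4i1 stood at 0.060, Cyb5b at -0.21, Cyp20a1 at -0.012, Cyp51 at -0.25, Parp4 at -0.024 and Nqo1 at -0.075. With the trend and both pools removed Arnt stood at -0.078, Cyp1b1 at -0.38, Stub1 at 0.014, Afmid at 0.0046, Cyb5b at -0.21, Cyp20a1 at -0.15, Cyp51 at -0.22, Parp4 at -0.10 and Nqo1 at -0.32. Nqo1 stood at -0.13 without sham 2 and nano-TiO2 3, and with each library left out it ran from -0.11 (without nano-TiO2 1) to 0.56, with -0.068 without sham 2. Xdh stood at -0.11 on protein-coding transcripts, and Cyp26b1 ran from -0.21 (without nano-TiO2 2) to 0.68 with each library left out. At most 88 reads of Ahr, 42 of Ahrr and 21 of Cyp1b1 in any library limit their precision.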

Other observations

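Enzymes of the same family as TIPARP and the P450 system that POR serves gave further values. Of 10 tested mono-ADP-ribosyltransferase genes 2 rose and none fell, beside 15.5% higher and 12.8% lower among all genes tested. Their median log2 fold change was 0.58 beside -0.01 for all genes. Parp8 had 9.27 ± 1.345 CPM in nano-TiO2 and 4.37 ± 1.56 CPM in sham hearts (SD, n = 3 each), a difference of 1.07 on the log2 scale (edgeR adjusted p = 0.0271), Parp4 had 0.72 (0.0287) and Parp9 0.87 (0.0502). Parp8 and Parp4 lost their calls without nano-TiO2 1, nano-TiO2 3, sham 1 and sham 2 in turn, with adjusted p of at most 0.0956, and after removal of the length and GC trend they stood at 0.59 and -0.02.

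Among 10 tested genes of P450 electron transfer and haem turnover 2 rose and 2 fell, with a median of -0.24. Among all genes tested 15.5% were called higher and 12.8% lower. The haem-binding receptor component Pgrmc1 (0.58, edgeR adjusted p = 0.0254) and the cytochrome b5 gene Cyb5b (0.46, 0.0470) rose. The haem oxygenase gene Hmox2 (-0.46, 0.0256) and the ferredoxin reductase gene Fdxr (-0.58, 0.0287) fell, and on the log2(TPM + 1) scale, with the median gene at 0.47, they stood at 0.23 and 0.13. Each of the 4 lost its call without nano-TiO2 1 and without sham 2, with adjusted p of at most 0.176 in any fit without 1 library. With the trend removed none of the 4 was called: Pgrmc1 stood at 0.28 (adjusted p = 0.410), Cyb5b at -0.21 (0.369), Hmox2 at -0.40 (0.0901) and Fdxr at -0.10 (0.727). Of 9 tested P450 enzyme genes edgeR called 0, and DESeq2 also 0, and those with the smallest p, Cyp20a1, Cyp51 and Cyp26b1, had log2 fold changes of 0.36, 0.35 and 0.33, with adjusted p from 0.168 to 0.607 and 0 of the 9 at an unadjusted p under 0.05. Of 7 enzymes of tryptophan catabolism, a source of AHR ligands, 2 passed the filter, Afmid (-0.26, adjusted p = 0.50) and Il4i1 (-0.37, adjusted p = 0.592), and Ido1 had 0 reads in all 6 libraries.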
